A study of Mus musculus with 13 samples.

Results

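Glutathione S-transferases were followed in mouse liver through 10 genes, namely Gsta1, Gsta2, Gsta3, Gsta4, Gstm1, Gstm2, Gstm3, Gstm4, Gstp1 and Gstt1. All probes annotated to these symbols were taken, which gave 16 of the 25697 probes on the array, and all 16 passed the detection filter that 11212 probes passed. Total liver RNA of female C57BL/6 mice was hybridised to 13 single-colour Illumina MouseRef-8 v2.0 bead arrays. Of these, 3 came from naive, untreated livers, 3 from livers after 1 week of TAA, 4 from livers after 4 weeks and 3 from livers after 6 weeks. TAA is the usual short form of thioacetamide, a liver toxin, and the series title speaks of liver fibrosis after toxic injury. The labels used here give no dose, route, age or genotype beyond the strain, and nothing states that each sample is a separate animal. The p-values therefore reflect variation among these samples, which may be technical.

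Glutathione S-transferases join the thiol of glutathione to reactive, electrophilic molecules, and the conjugates leave the hepatocyte through export pumps and end as mercapturates. The soluble enzymes fall into classes, here alpha (Gsta), mu (Gstm), pi (Gstp) and theta (Gstt), and the liver is one of their richest sources. Several of the genes are known targets of the transcription factor NRF2, encoded by Nfe2l2, which acts through antioxidant response elements. TAA itself is oxidised to reactive S-oxides, mainly by CYP2E1 and flavin monooxygenases, in the pericentral part of the liver lobule.

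Mean intensity per array ran from 472 to 587 on naive arrays, 177 to 479 on 1-week arrays, 456 to 611 on 4-week arrays and 195 to 273 on 6-week arrays. Between 12 and 14 of the 16 probes were detected per naive array, 14 to 15 per 1-week array, 14 to 16 per 4-week array and 15 per 6-week array. Arrays in a group are named by the letters of the deposited table. Probes for Erich5, Zxda, Ifngr2, Prf1, Rhbdl2 and Gm7609 divided the arrays into 1-week arrays B and C with all 6-week arrays on one side and all others on the opposite side, with a gap of 2.78 log2 units for Erich5. A second Ifngr2 probe had its largest gap, 0.28 log2 units, elsewhere. The Pisd-ps2 probe set apart only 1-week array B and 6-week arrays B and C, by 1.82. The labels name no batch that matches the division by Erich5 and the others named with it. An array set by that division was therefore added to the model as an alternative, in which the 1-week change rests on array A alone. The 6-week arrays share no set with the naive or 4-week arrays, so these groups alone cannot tell array set from time. The model takes the set effect only from 1-week array A against 1-week arrays B and C. Its changes for 6 weeks against naive or 4 weeks rest on that difference. All naive and 4-week arrays are in the same set, so the change between these groups cannot move in this model. Hepatocyte markers averaged 11.99 to 12.34 log2 units per array in naive liver, 11.96 to 12.36 at 1 week, 11.75 to 12.08 at 4 weeks and 11.90 to 12.11 at 6 weeks. All 6 hepatocyte markers were detected, and Asgr1 was called lower at 1 week (-0.59) and, with Cps1, at 6 weeks (-0.64 and -0.69), calls that were lost with the array set in the model, where the median change of the 6 was -0.58 at 6 weeks. In bulk tissue, fewer cells of a type and less RNA per cell cannot be told apart.

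Probe values below are log2 intensities after background correction and quantile normalization, and changes are differences of group means in log2 units with their standard error (SE). A change was called when limma's moderated test gave a p-value under 0.05 after Benjamini-Hochberg adjustment over all 11212 probes. At 1 week 7 of the 16 probes were called higher than in naive liver and 1 was called lower, where 12.2% of all probes tested were called higher and 13.4% lower. At 4 weeks 9 were called higher and 0 lower, where the shares over all probes were 14.1% and 12.5%. At 6 weeks 8 were called higher and 1 lower, where the shares were 19.9% and 19.1%. The median change of the 16 probes was 0.58, 0.89 and 0.94 at 1, 4 and 6 weeks, and that of all probes was -0.02, 0.03 and 0.04. The members were chosen with earlier results of these data known, so the contrast with all probes is a description and not a test. With the array set in the model, 7, 9 and 2 of the 16 probes were called, the last 2 being Gsta1 and Gsta2. In that model 1363, 3190 and 1166 of all 11212 probes were called at 1, 4 and 6 weeks.

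**Figure D1:**
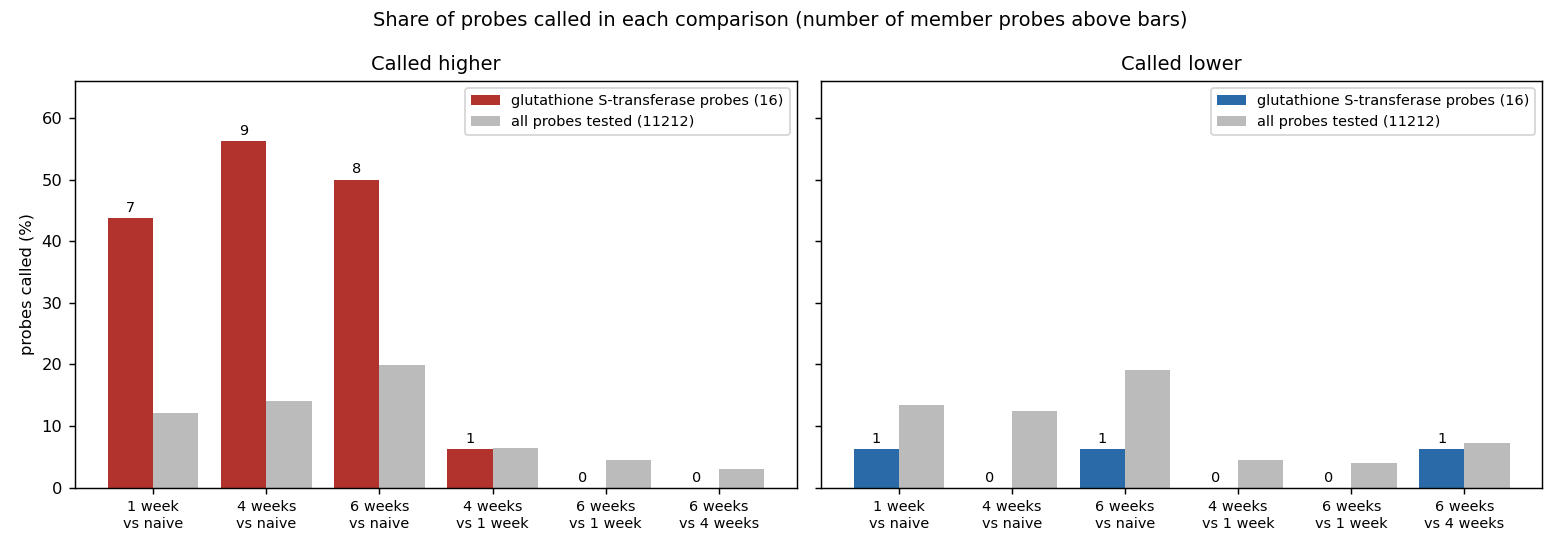
Percent of the 16 glutathione S-transferase probes (coloured bars, left) and of all 11212 probes tested (grey bars, right) called higher or lower at an adjusted p under 0.05 in each of 6 comparisons, with the number of transferase probes above each bar. In the comparisons with naive liver 7, 9 and 8 transferase probes were called higher, and between treated groups at most 1 probe was called in either direction. The members were chosen with earlier results of these data known.

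The alpha class held the largest changes. Gsta1, an inducible alpha transferase, and Gsta2, its close relative, rose at every time, Gsta4 rose less, and neither probe of Gsta3, the constitutive alpha form of mouse liver, was called in any comparison of the fit described above. Raw bead intensity of Gsta1 (ILMN_2979237) was 235.7, 120.9 and 120.4 on the naive arrays, 10139.8, 12437.7 and 2278.8 on the 1-week arrays, 7242.3, 5498.4, 15860.3 and 9082.3 on the 4-week arrays, and 3366.0, 6688.7 and 2938.5 on the 6-week arrays. After normalization it stood at 6.72, 4.42 and 4.45 log2 units in naive liver, 13.01, 13.65 and 13.02 at 1 week, 12.63, 12.10, 13.38 and 12.82 at 4 weeks, and 13.28, 13.42 and 13.09 at 6 weeks. Every treated array was far above every naive array, and in naive liver the probe was detected on 1 of 3 arrays, array A. The change was 8.03 ± 0.48 (SE) at 1 week, 7.54 ± 0.44 at 4 weeks and 8.07 ± 0.48 at 6 weeks, with limma adjusted p of 3.14e-07, 5.76e-08 and 7.93e-08. In each of the 3 comparisons with naive liver this was the largest change of all probes tested.

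As a fold, Gsta1 was 261 times its naive level at 1 week, 186 times at 4 weeks and 268 times at 6 weeks. With the 2 undetected naive arrays raised to the lowest signal detected on each, the folds were 165, 117 and 169. The size of the fold differed widely between ways of handling the dim naive signals. Without background correction the folds were 63.6, 45.2 and 65.2, by the deposited log2 values 48.4, 33.9 and 49.6, and without naive array A 442, 314 and 453. The changes under these 3 alternatives were all called. With the array set in the model the changes were 7.81, 7.54 and 7.73, where the 4-week change could not move.

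Gsta2 (ILMN_1248849) was detected on all 13 arrays. It measured 8.22, 6.59 and 7.80 in naive liver, 12.70, 13.54 and 12.32 at 1 week, 12.48, 11.44, 13.33 and 12.84 at 4 weeks and 12.72, 12.95 and 12.16 at 6 weeks. Even the lowest treated array, 4-week array B, lay above the highest naive array, A. The change was 5.32 ± 0.47 at 1 week, 4.99 ± 0.44 at 4 weeks and 5.08 ± 0.47 at 6 weeks (limma adjusted p 6.58e-06, 3.90e-06 and 3.50e-06), equal to 39.9, 31.7 and 33.8 times the naive level. Without background correction these folds were 24.2, 19.3 and 20.4, and the deposited log2 values gave changes of 4.34, 4.01 and 4.09 log2 units, all called. By size, the changes of 5.32, 4.99 and 5.08 ranked 2, 5 and 6 among all probes tested. Gsta1 and Gsta2 did not differ detectably between treated groups: the changes of Gsta1 were -0.49 (95% interval -1.44 to 0.45) for 4 weeks against 1 week, 0.04 (-0.98 to 1.05) for 6 weeks against 1 week and 0.53 (-0.42 to 1.48) for 6 against 4 weeks.

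Both genes lie on mouse chromosome 9, as does Gsta4. The bases in front of Gsta1 and Gsta2 are shown because these neighbouring genes moved together. RefSeq places them, in the build GRCm38.p6, at chr9:78230419-78230668 on the plus strand for Gsta1 and chr9:78347193-78347395 on the minus strand for Gsta2, and the capitals mark the longest stretch the 2 sequences share.
Gsta1: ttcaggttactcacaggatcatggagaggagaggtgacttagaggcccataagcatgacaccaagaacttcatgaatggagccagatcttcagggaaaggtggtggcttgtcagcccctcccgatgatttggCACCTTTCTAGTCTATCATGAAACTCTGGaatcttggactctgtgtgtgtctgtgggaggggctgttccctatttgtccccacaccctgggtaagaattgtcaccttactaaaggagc
Gsta2: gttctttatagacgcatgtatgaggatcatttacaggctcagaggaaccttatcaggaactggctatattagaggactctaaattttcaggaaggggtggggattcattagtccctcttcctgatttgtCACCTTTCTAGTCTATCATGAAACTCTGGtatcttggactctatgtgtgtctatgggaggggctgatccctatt
The shared stretch is 29 bases long. Among the other 27 pairs of the 8 transferase genes with at least 200 bases of such sequence, the longest shared stretch ran from 7 to 10 bases. Gsta4 and Gstt1 were not among these 8, and the pairs include genes of different classes. Whether the shared stretch has a part in the rise was not tested. The array probes are listed here without their sequences, so whether the Gsta1 and Gsta2 probes also bind each other's transcript was not tested.

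Gsta4 (ILMN_2892441), whose enzyme is known for conjugating hydroxynonenal, a product of lipid peroxidation, rose by a smaller amount. Its values were 9.95, 9.14 and 9.38 in naive liver, 10.99, 11.66 and 11.10 at 1 week, 10.52, 10.60, 11.39 and 10.92 at 4 weeks and 10.58, 10.89 and 10.69 at 6 weeks. No treated array fell to the level of the highest naive array. The change was 1.76 ± 0.26 at 1 week, 1.36 ± 0.25 at 4 weeks and 1.22 ± 0.26 at 6 weeks (limma adjusted p 3.99e-04, 0.00103 and 0.00218), or 3.38, 2.58 and 2.34 times the naive level. With the array set in the model the 6-week change was 0.84 and no longer called.

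The main Gsta3 probe (ILMN_1241437) stayed near its naive level after normalization. It gave 14.03, 14.12 and 14.12 in naive liver, 14.18, 14.27 and 14.70 at 1 week, 13.74, 14.14, 14.01 and 14.14 at 4 weeks and 14.31, 14.30 and 14.29 at 6 weeks. Its changes were 0.29 (95% interval -0.09 to 0.67), -0.08 (-0.44 to 0.27) and 0.21 (-0.17 to 0.59), with upper limits below the changes of Gsta4 at the same times. This was the brightest member probe in naive liver, with a mean raw intensity of 24444.8 there and 17979.5, 20449.1 and 9864.9 at 1, 4 and 6 weeks. Whether quantile normalization limits a change at such bright signals was not tested. The second Gsta3 probe (ILMN_3138685) changed by 0.22, -0.09 and -0.23, also not called, and the 2 probes correlated with r = 0.417 over the 13 arrays. For 6 weeks against 1 week the second probe was called lower without 1-week array B, at -0.59, and for 4 weeks against 1 week the main probe was called lower under median scaling, at -0.87.

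**Figure D2:**
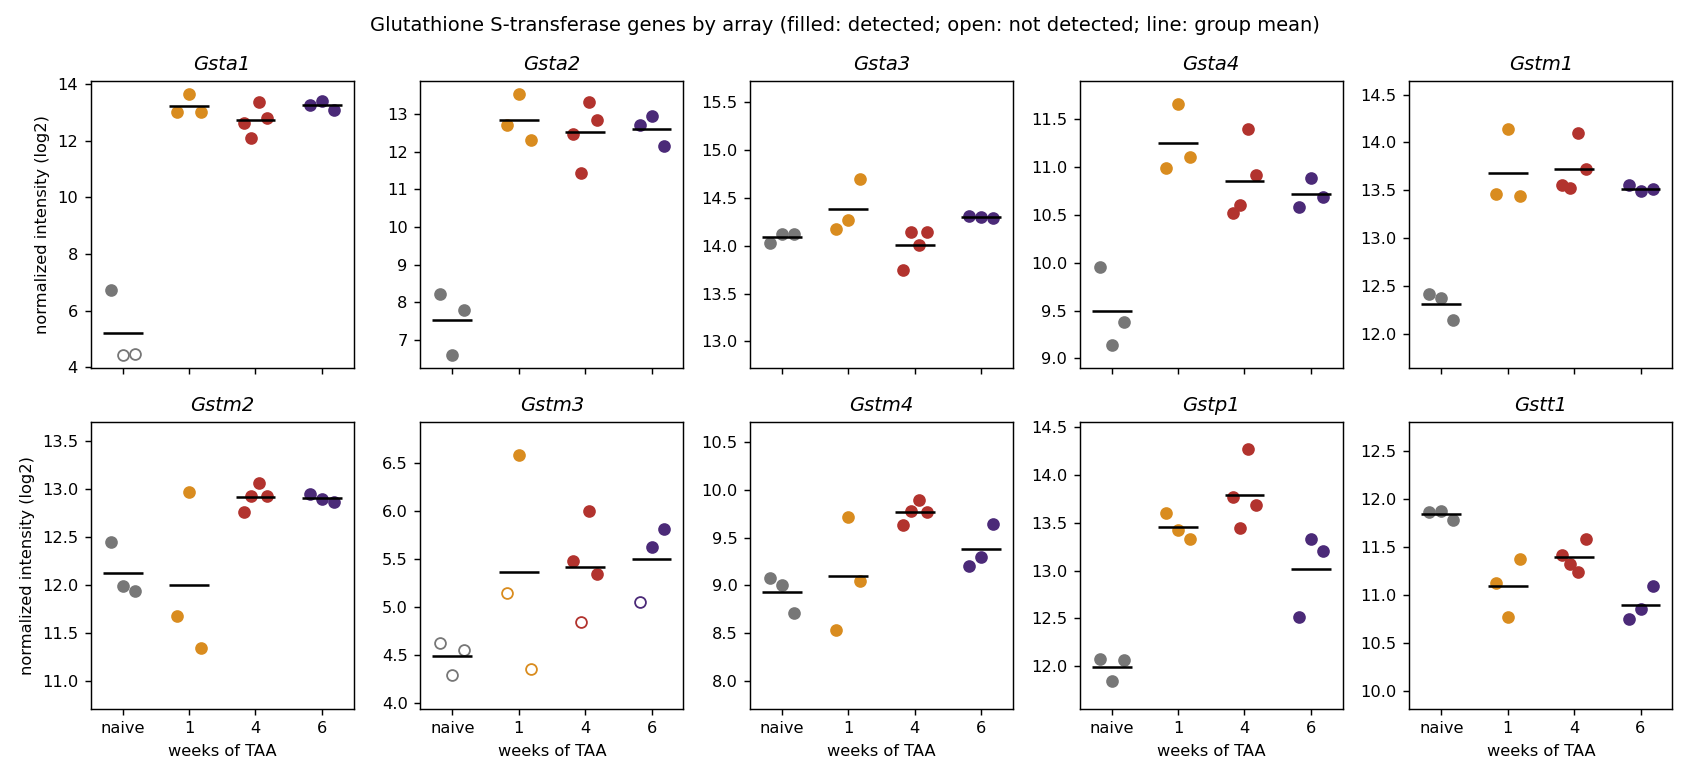
Normalized log2 intensity (vertical axis, a different range in each panel) of the probe with the highest mean for each of the 10 genes, by group (horizontal axis, naive and weeks of TAA). Points are arrays, filled where detected and open where not, and lines are group means: Gsta1 and Gsta2 separate every treated array from every naive array by several log2 units, whereas Gsta3 was not called at any time.

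Among the mu class genes, Gstm1 rose at every time, Gstm2 and Gstm4 were called only at later times and Gstm3 was close to the detection limit. Numbers of mu class genes do not match between mouse and human. Gstm1 (ILMN_1228233), an abundant mu form of mouse liver, measured 12.42, 12.37 and 12.14 in naive liver, 13.46, 14.14 and 13.44 at 1 week, 13.56, 13.52, 14.10 and 13.72 at 4 weeks and 13.55, 13.49 and 13.51 at 6 weeks. Treated and naive arrays were separated by a gap of about a log2 unit, and the 6-week arrays spanned only 0.057. The change was 1.37 ± 0.21, 1.41 ± 0.20 and 1.21 ± 0.21 at 1, 4 and 6 weeks (limma adjusted p 4.89e-04, 1.57e-04 and 5.13e-04), or 2.58, 2.66 and 2.31 times the naive level. With the array set in the model the 6-week change of Gstm1 was 0.88 and not called.

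The other Gstm1 probe (ILMN_2626491) was dim. It was detected on 0 of 3 naive arrays and on 1 array at each of 1, 4 and 6 weeks, its changes were 0.12, 0.13 and -0.09, and it correlated with the bright Gstm1 probe at r = 0.091 over the 13 arrays. These 2 probes thus disagree by 1.30 log2 units at most among the 3 changes, and the dim probe was not well above background on 10 of the 13 arrays.

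Gstm2, another mu form, was read by 3 probes. Whether probes of the mu class genes bind each other's transcripts was not tested. The brightest (ILMN_2624854) gave 12.44, 11.99 and 11.94 in naive liver, 11.68, 12.97 and 11.34 at 1 week, 12.76, 12.92, 13.07 and 12.93 at 4 weeks and 12.94, 12.90 and 12.87 at 6 weeks. All 4-week and 6-week arrays lay above all naive arrays, while the 1-week arrays fell on either side of them, array B above and arrays A and C below. Its changes from naive were -0.13 ± 0.31, 0.80 ± 0.29 and 0.78 ± 0.31, and the limma adjusted p at 4 and 6 weeks was 0.0532 and 0.0568. The second probe (ILMN_1251449) was called at both later times, with 0.85 ± 0.28 at 4 weeks (adjusted p 0.0344) and 0.86 ± 0.30 at 6 weeks (0.0307), but each call was lost under 9 alternatives. Among these were the fits without naive array B or C for both calls, without 4-week array B, C or D for the 4-week call, and without any of the 6-week arrays for the 6-week call, all at changes from 0.77 to 0.88. The changes were smaller under median scaling, at 0.40 and 0.36, under cyclic loess, at 0.66 and 0.70, and with the array set at 6 weeks, at 0.61, none of them called. The third (ILMN_2862470) changed by -0.43, 0.79 and 0.23, none of them called. Without 1-week array B the brightest probe and the one described last were called lower at 1 week, at -0.61 and -0.96. Without 1-week array B or C the brightest was called higher at 4 and 6 weeks and the last at 4 weeks, and without naive array A the brightest was called higher at 6 weeks, at 0.94. The first and second probes correlated at r = 0.991 over the arrays and the third correlated with them at 0.887 and 0.869.

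Between treated groups, the third Gstm2 probe was the one transferase probe called for 4 weeks against 1 week, where 6.49% of all probes were called higher and 4.58% lower. It measured 11.64, 11.47, 11.83 and 11.57 at 4 weeks against 10.30, 11.46 and 9.46 at 1 week, a change of 1.23 ± 0.33 with a limma adjusted p of 0.0308. The 1-week arrays were widely spread, and array B came just below the lowest 4-week array. Without 1-week array C the change was 0.75 and not called, the call was also lost without 1-week array A or any of the 4-week arrays, at changes from 1.16 to 1.28, and with the array set in the model it was 1.33 (limma adjusted p 0.182), where Gstm4 was the one transferase probe called (1.23, adjusted p 0.0490). Without 1-week array B the change of the third Gstm2 probe was 1.75, with 4 transferase probes called. In that fit 1584 of all 11212 probes were called.

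Gstm4 (ILMN_1214964) measured 9.07, 8.999 and 8.71 in naive liver, 8.53, 9.71 and 9.04 at 1 week, 9.63, 9.77, 9.89 and 9.77 at 4 weeks and 9.20, 9.29 and 9.64 at 6 weeks. All 4-week arrays were above the naive ones, and the 1-week arrays ran across them. The 4-week change of 0.84 ± 0.23 was called (limma adjusted p 0.0145), and the changes of 0.17 at 1 week and 0.45 at 6 weeks (adjusted p 0.162) were not. With the array set in the model the last 2 had the opposite sign, -0.40 and -0.39, and were not called either. Without naive array C the 4-week change of Gstm4 was 0.73 and lost its call. Without 1-week array B, Gstm4 was also called for 4 weeks against 1 week, at 0.98.

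Gstm3 (ILMN_1216149) was detected on 0 of 3 naive arrays, 1 of 3 at 1 week, 3 of 4 at 4 weeks and 2 of 3 at 6 weeks. It read 4.62, 4.28 and 4.55 in naive liver, 5.14, 6.58 and 4.35 at 1 week, 5.48, 4.84, 6.00 and 5.34 at 4 weeks and 5.05, 5.62 and 5.81 at 6 weeks, and it was not well above background in naive liver. No change was called, with limma adjusted p of 0.145, 0.0986 and 0.0728. Against the lowest signal detected on the naive arrays, the lower bound for the fold of Gstm3 was 1.06 at 6 weeks and 1.00 at 4 weeks. These bounds use group means and take no account of spread, and neither change was called. Its 4-week and 6-week changes of 0.93 and 1.01 were called without 1-week array B or C, and its 1-week change was called without 1-week array C, at 1.38. Gstm3 was also called under median scaling at 1 and 6 weeks, at 1.58 both times, under cyclic loess at 1 week, at 1.07, and at 4 and 6 weeks in models of the compared groups alone.

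**Figure D3:**
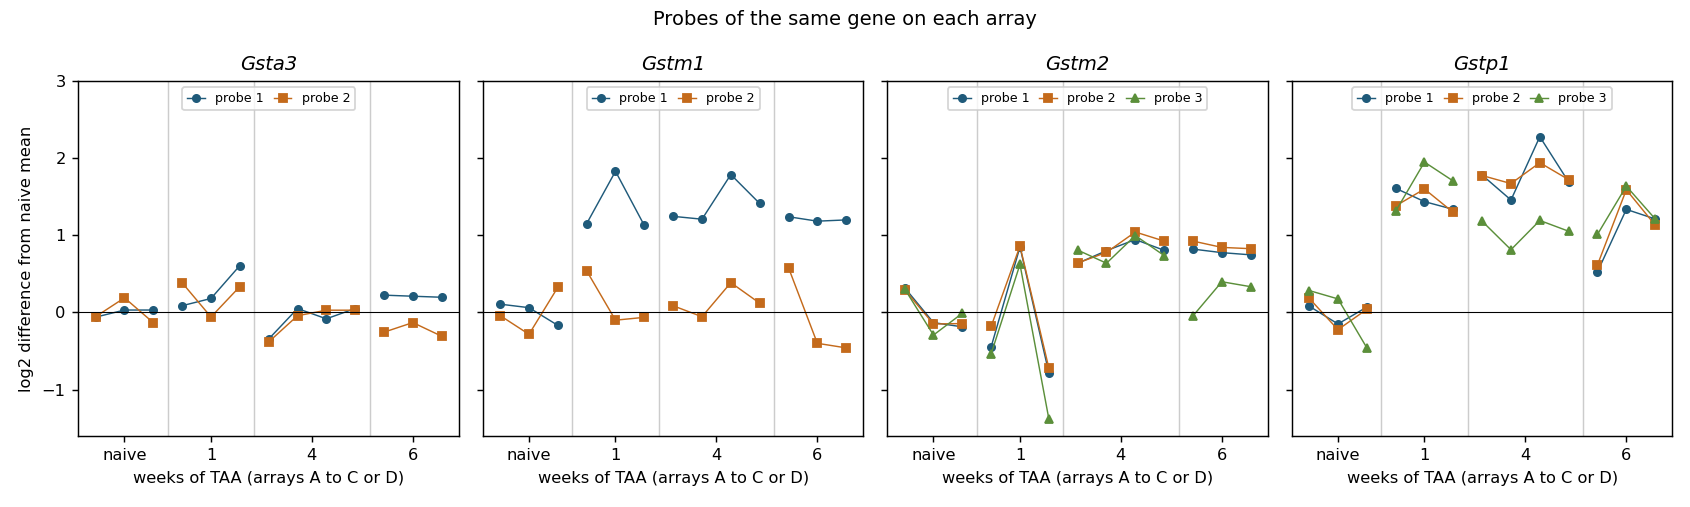
Log2 difference from the naive mean of the same probe (vertical axis) on each of the 13 arrays (horizontal axis, grouped by weeks of TAA) for the 4 genes with several probes. The first 2 probes of Gstm2 and of Gstp1 run together, the dim second Gstm1 probe does not follow the first, and the third Gstp1 probe is lower than the others at 4 weeks.

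Gstp1, the pi class enzyme, whose liver level is known to be higher in male than in female mice, rose at every time by all of its 3 probes. The brightest (ILMN_2677046) measured 12.07, 11.84 and 12.06 in naive liver, 13.60, 13.43 and 13.33 at 1 week, 13.77, 13.45, 14.27 and 13.68 at 4 weeks and 12.52, 13.33 and 13.20 at 6 weeks. Every treated array exceeded every naive array, and 6-week array A was the lowest of the treated ones. The change was 1.46 ± 0.24, 1.80 ± 0.22 and 1.02 ± 0.24 at 1, 4 and 6 weeks (limma adjusted p 6.46e-04, 6.01e-05 and 0.00340), or 2.75, 3.49 and 2.03 times the naive level.

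The second Gstp1 probe (ILMN_1223230) changed by 1.43, 1.78 and 1.11, all called, and correlated with the first at r = 0.975 over the arrays. The third (ILMN_2793329) was much dimmer and was detected on 1 of 3 naive arrays. It read 5.53, 5.42 and 4.79 in naive liver, 6.56, 7.20 and 6.95 at 1 week, 6.43, 6.06, 6.44 and 6.30 at 4 weeks and 6.26, 6.89 and 6.46 at 6 weeks. Its changes of 1.65, 1.06 and 1.29 were called, and with undetected naive arrays at the lowest detected signal they were 1.43, 0.84 and 1.07. Without background correction the changes of the third Gstp1 probe were 0.65, 0.37 and 0.47, and by the deposited log2 values 0.55, 0.31 and 0.40, also called. Its highest group was 1 week, that of the other 2 Gstp1 probes was 4 weeks, and none of the 3 was called between these times, except that under median scaling the third was called lower at 4 weeks than at 1 week, at -0.71. With the array set in the model the 6-week changes of the 3 probes were 1.25, 1.05 and 0.77, none called, and under median scaling that of the brightest was 0.50 and not called.

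For 6 weeks against 4 weeks, the brightest Gstp1 probe was the one transferase probe called, where 3.11% of all probes were called higher and 7.18% lower. It fell by 0.78 ± 0.22 on the log2 scale at 6 weeks relative to 4 weeks (limma adjusted p 0.0366). The second Gstp1 probe changed by -0.66 (adjusted p 0.0537) and the third by 0.23 (0.567), so the 3 probes did not run one way. Without 6-week array A the change of the brightest probe was -0.53 and not called, without 6-week array C or 4-week array A, C or D it was also not called, at -0.87 to -0.62, and with the array set in the model it was -0.55 and not called. The second probe was called without 1-week array B or C or 6-week array B. For 6 weeks against 1 week 0 of the 16 probes were called, where 4.44% of all probes were called higher and 4.03% lower, and limma's unadjusted p was under 0.05 for 3 of the 16. Without 1-week array B, 4 were called, where 1835 of all 11212 probes were called.

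The sequence in front of Gstp1 is shown because it is the one member window that held the AP-1 type element TGANTCA, in capitals here. It lies at chr19:4037913-4038162 on the minus strand in GRCm38.p6, from RefSeq.
Gstp1: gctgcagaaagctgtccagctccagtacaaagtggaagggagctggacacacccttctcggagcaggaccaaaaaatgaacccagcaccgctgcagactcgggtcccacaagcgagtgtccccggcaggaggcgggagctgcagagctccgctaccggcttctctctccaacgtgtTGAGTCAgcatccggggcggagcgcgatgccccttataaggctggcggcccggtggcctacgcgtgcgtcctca
The motif was searched on both strands of windows that run from 250 bases before to 50 after each RefSeq gene start, and 7.81% of 32851 such windows held it. Its first base is at position -74 from the Gstp1 start. The core of the antioxidant response element, TGACNNNGC, was in 12.4% of the windows and, among the 9 transferase genes with a window, in that of Gsta3, with its first base at -121. Gsta1 and Gsta2 had no match to either motif in these windows. A match is a description of the letters and not a site of binding.

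Gstt1, a theta class enzyme that acts on small halogenated molecules, was the one gene of the 10 called lower than in naive liver. Its probe (ILMN_2680533) measured 11.86, 11.88 and 11.79 in naive liver, 11.12, 10.77 and 11.37 at 1 week, 11.42, 11.32, 11.24 and 11.58 at 4 weeks and 10.75, 10.86 and 11.09 at 6 weeks. All treated arrays lay below all naive arrays. It fell by 0.75 ± 0.18 at 1 week (limma adjusted p 0.00851) and by 0.94 ± 0.18 at 6 weeks (0.00106) on the log2 scale, while the 4-week change was -0.45 ± 0.17 (0.0655), called only without 1-week array B or C among the fits that left out an array, and also called under median scaling (-0.84), cyclic loess (-0.66), without background correction (-0.43), in a model of the 4-week and naive arrays alone, and in the value table with or without the replicate block (-0.49 and -0.43). It stood at 0.593 times the naive level at 1 week and 0.520 times at 6 weeks. The 1-week call was lost in a model of the 1-week and naive arrays alone, and both calls were lost with the array set in the model, where the changes were -0.72 and -0.89.

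**Figure D4:**
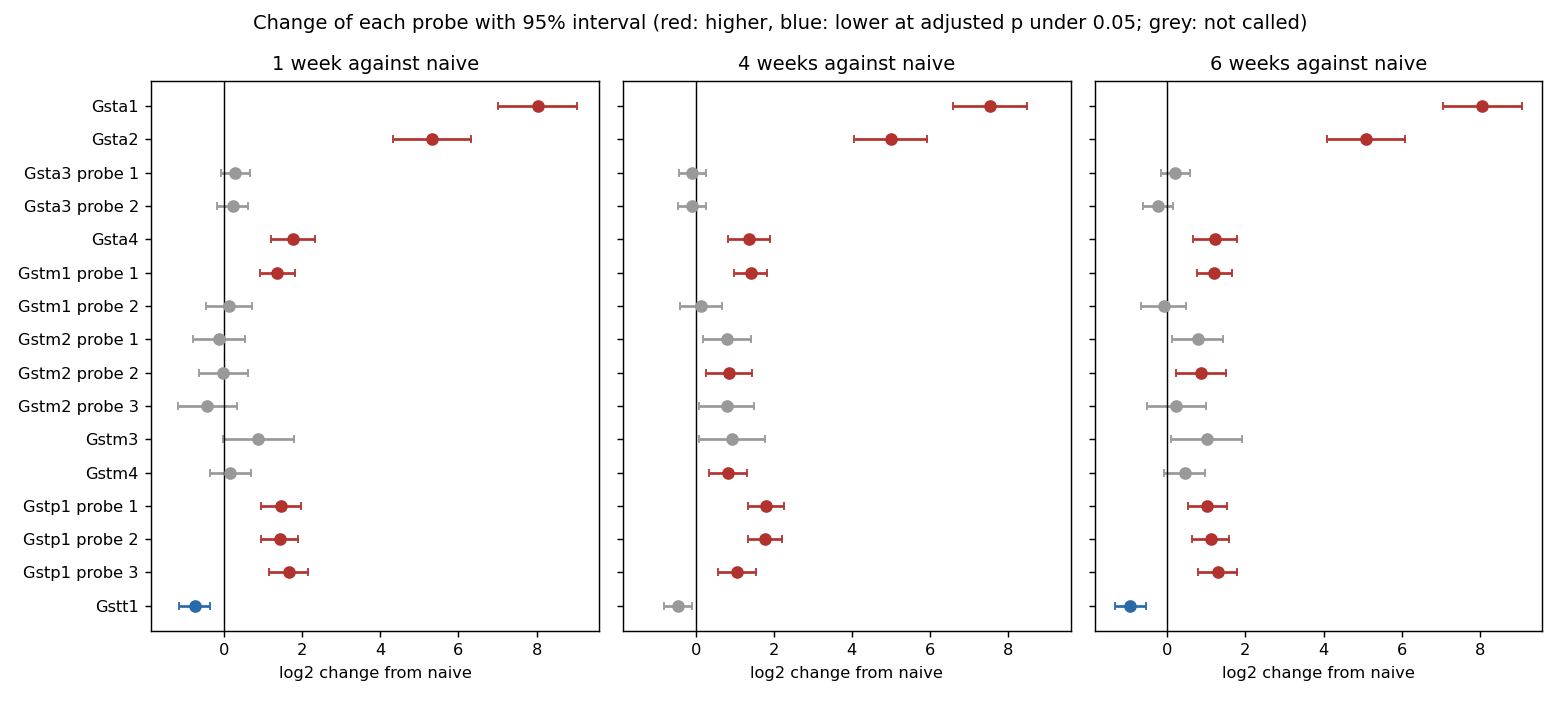
Log2 change from naive liver (horizontal axis) of each of the 16 probes at 1, 4 and 6 weeks of TAA, with its 95% interval from limma. Red marks probes called higher, blue those called lower and grey those not called. Gsta1 lies near 8 in all 3 panels and Gsta2 near 5, the called changes of Gsta4, Gstm1, Gstm2, Gstm4 and Gstp1 lie between 0.84 and 1.80, and Gstt1 lies below 0.

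Within some groups, 1 array held most of the highest member values. Array A gave the highest value among the naive arrays for 12 of the 16 probes (37.7% of all probes tested), array B among the 1-week arrays for 11 (36.2%) and array C among the 4-week arrays for 14 (29.6%). Among the 6-week arrays, A, B and C gave the highest value for 5, 8 and 3 of the 16 probes (35.5%, 34.4% and 30.1% of all probes tested). Several of the 16 probes read the same gene. The median span of a member probe over the 1-week arrays was 0.66 log2 units, close to the 0.65 of all probes tested, and over the naive arrays it was 0.43 for members, against 0.38 for all probes. When arrays were scaled to a common median in place of quantiles, the median change of all probes was 0.20 at 1 week, 0.00 at 4 weeks and 0.25 at 6 weeks, and the member median exceeded it by 0.76, 0.83 and 0.31. All 8, 9 and 9 member changes called against naive kept their sign relative to that shift. The share of called probes that were higher was 62.2% at 1 week and 63.8% at 6 weeks under that scaling, against 47.7% and 51.1% under quantile normalization. Between treated groups it was 25.8%, 35.4% and 66.9% for 4 against 1, 6 against 1 and 6 against 4 weeks, against 58.7%, 52.4% and 30.2% under quantile normalization, and cyclic loess gave 48.6%, 40.4% and 27.3%.

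The genes whose log2 intensities most resembled those of 5 members over the 13 arrays were found by Pearson correlation, given as a description since all arrays share the same groups and normalization. Gsta1 was most like Cstb (r = 0.985), which encodes a cathepsin inhibitor, Pafah1b3 (0.968) and Mcm2 (0.966), a replicative helicase subunit. Gsta2 was most like Cstb (0.983), Nme1 (0.978), a nucleoside diphosphate kinase, and Pbk (0.978), a mitotic kinase. Cstb changed by 1.19, 1.14 and 1.25 and Pbk by 3.004, 3.25 and 3.20 at 1, 4 and 6 weeks. Gstm3 was most like Muc13 (0.933), Wdr1 (0.923) and Ncapd2 (0.916), Gstp1 like Pop5 (0.957), Pbdc1 (0.949) and Spcs1 (0.948), and Gstt1 like Copz2 (0.962), Plpp5 (0.948) and Pex11g (0.934).

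Other transferase genes did not share one direction. Of 12 tested with 1 probe each, 3 were called higher and 2 lower at 1 week, 3 and 2 at 4 weeks, and 3 and 7 at 6 weeks, with median changes of -0.21, 0.05 and -0.66. Under the model with the array set 2 were higher and 1 lower at 1 week, and at 6 weeks 1 and 2, namely Gstp2 against Gstt3 and Gsto1. Gstp2, the neighbouring pi class copy, was detected on 0 of 3 naive arrays and was at least 2.59-fold, 7.15-fold and 3.91-fold higher at 1, 4 and 6 weeks (limma adjusted p 0.0064, 2.18e-05 and 3.11e-04). The microsomal Mgst3 rose by 0.70 at 1 week and 0.93 at 6 weeks and was called higher at 4 weeks too, and the mu class Gstm5 by 0.90, 1.09 and 0.75. The theta class Gstt3 stood at -0.62, -1.08 and -1.17, all called lower, the omega class Gsto1 at -0.61 and -1.44 at 1 and 6 weeks, and Gstk1 at -0.75 at 4 weeks. Whether probes of Gstp1 and Gstp2 bind each other's transcript was not tested.

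The genes that supply glutathione moved both ways. Of 11 tested, 3 were called higher and 1 lower at 1 week, 3 and 2 at 4 weeks, and 6 and 4 at 6 weeks. These counts became 2 and 1 at 1 week and 1 and 1 at 6 weeks with the array set in the model, the last being Gpx4 and Cbs. Slc7a11, the cystine importer, was detected on 0 of 3 naive arrays and was at least 1.94-fold, 1.77-fold and 2.46-fold higher, and Gpx4, which reduces lipid hydroperoxides with glutathione, rose by 1.34, 1.46 and 0.99. Cbs and Cth, the transsulfuration enzymes that make cysteine from homocysteine, stood at -1.62 and -1.99 at 6 weeks, both called. Called too were Gpx2 at 6 weeks, at least 1.60-fold higher, Glrx at 4 weeks (-0.53) and Gpx1 at 1 week (-0.54).

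NRF2 and its classical targets included no gene called lower. Of 12 tested, 5, 6 and 5 were called higher at 1, 4 and 6 weeks, with median changes of 0.43, 0.71 and 0.53. The array set left 3 called at 1 week and 2 at 6 weeks, Srxn1 and Cbr3. The carbonyl reductase Cbr3 rose by 4.08, 4.87 and 3.95 and the sulfiredoxin Srxn1 by 2.01, 2.24 and 2.55. Nfe2l2 itself was called at 4 weeks (1.30 ± 0.19) and 6 weeks (1.09 ± 0.20) and changed by 0.44 ± 0.20 at 1 week, which was not called. Of the classical targets, the haem oxygenase Hmox1 was not called at any time.

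For the later steps, 7 genes of conjugate export and mercapturate formation were tested, of which 2 were called higher and 2 lower at 1 week, 2 and 1 at 4 weeks and 2 and 3 at 6 weeks. When the array set was in the model 0 were higher and 1 lower at 1 week, and 1, Nat8, was higher and 0 lower at 6 weeks. Abcc2, the canalicular pump for glutathione conjugates, rose by 1.05, 1.65 and 1.32, and the N-acetyltransferase Nat8 was at least 1.53-fold, 2.01-fold and 5.67-fold higher against undetected naive signals. Abcc3, a basolateral pump, stood at -1.06 at 1 week and -1.26 at 6 weeks, and Anpep, an aminopeptidase, at -1.03, -0.75 and -1.16, all called.

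**Figure D5:**
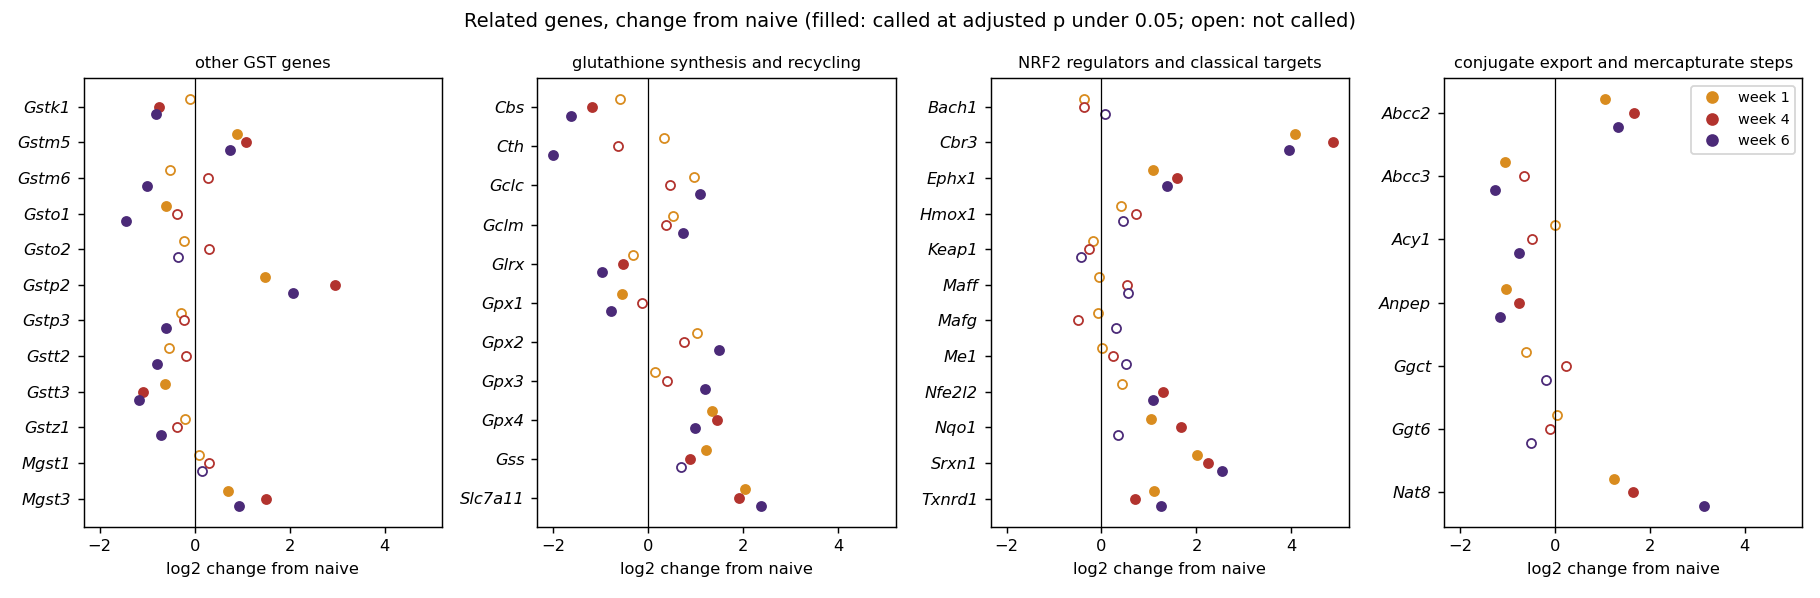
Log2 change from naive liver (horizontal axis) at 1, 4 and 6 weeks of TAA for other transferase genes, genes of glutathione supply, NRF2 with its classical targets, and genes of conjugate export and mercapturate steps. Filled points were called at an adjusted p under 0.05 and open points were not. Cbr3 has the largest change, above 3.9 at each time, and the points of Gstp2, Slc7a11 and Nat8, undetected in naive liver, are fitted values and no bounds.

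Of the enzymes that oxidise TAA, Cyp2e1 averaged 14.66 in naive liver and 13.39, 13.84 and 13.41 at 1, 4 and 6 weeks, and was called lower each time, with log2 changes of -1.27 ± 0.20, -0.83 ± 0.19 and -1.26 ± 0.20 (limma adjusted p 5.25e-04, 0.00471 and 2.35e-04). In the list of 4 such genes tested, 1 was called higher at each time, Fmo5, with changes of 1.08, 0.94 and 1.20, and 2, 1 and 1 were called lower, Fmo1 being the second at 1 week (-0.60). Fmo5 was not called at 1 or 6 weeks with the array set in the model, and the calls of Cyp2e1 and Fmo1 remained. Among 6 genes for xenobiotic receptors and their P450 targets, 0, 1 and 0 were called higher and 3, 2 and 4 lower. The receptor gene Nr1i3 changed by -1.92, -1.67 and -2.38, Cyp2b9 by -1.84, -1.47 and -2.58, and Cyp2b10 by -3.26 at 6 weeks, all called, while Cyp3a11 was called higher at 4 weeks (1.03). In the model with the array set 1 of these 6 genes was higher and 3 lower at 1 week, and 0 and 3 at 6 weeks.

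Markers of liver zones and other cells moved in the same samples. Of 5 pericentral hepatocyte markers tested, which include Cyp2e1 and Cyp1a2, 5, 4 and 5 were called lower at 1, 4 and 6 weeks, and their mean per array was 11.20 to 11.49 in naive liver and 8.67 to 9.46, 8.59 to 8.79 and 8.31 to 8.79 at 1, 4 and 6 weeks. Glul, which defines the innermost pericentral cells, was not detected on any treated array, Oat changed by -3.03, -4.43 and -3.99, and Slc1a2 was -4.33 at 1 week and at least 34.6-fold and 30.8-fold lower at 4 and 6 weeks. Of 4 cholangiocyte markers tested, 1, 1 and 3 were called higher, with means per array of 4.76 to 4.94 in naive liver and 4.999 to 5.70, 5.69 to 6.76 and 6.44 to 6.86 at 1, 4 and 6 weeks, and Cldn4 was at least 2.31-fold, 4.07-fold and 8.37-fold higher. Of 5 stellate cell markers tested, 1, 2 and 3 were called higher, with means of 7.63 to 7.75 in naive liver and 7.82 to 8.29, 8.20 to 8.91 and 8.32 to 8.69 at 1, 4 and 6 weeks, and Col1a1 was at least 2.95-fold and 1.98-fold higher at 4 and 6 weeks. Macrophage markers gave 0, 1 and 0 higher and 1, 1 and 2 lower of 4, endothelial markers 1, 0 and 1 higher and 1, 1 and 2 lower of 5, erythroid markers 1 lower of 3 at 1 week, and the 1 lymphocyte marker tested, Cd3g, was called lower at 6 weeks. With the array set in the model 5 and 4 pericentral markers were called lower at 1 and 6 weeks, 0 and 1 cholangiocyte markers and 1 and 1 stellate cell markers higher, 2 and 0 macrophage markers higher and 1 and 1 lower, 0 and 1 endothelial markers lower, and 0 erythroid or lymphocyte markers in either direction. The part of these cell type shifts in the transferase changes was not tested.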

How the data were processed

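The raw table deposited by the authors gives mean bead intensities for 13 arrays, not normalized per the file headers, and a detection p-value for each. Per the submitters' processing notes GenomeStudio was used, and no version is given. A second deposited table gives log2 values with a mean of 0.0075 over all of them, and its normalization and centring are not stated. The largest absolute median of a probe over its 13 samples was 1.08, so not every probe is centred on that median. Its group differences followed quantile-normalized raw log2 values (r = 0.998, slope 0.905), so its scale and direction were read from that. Its column medians were -8.67e-04, -6.07e-04 and -9.75e-04 for naive samples, -0.00176, -0.00116 and -4.85e-04 at 1 week, -7.00e-04, 2.87e-04, 1.98e-04 and -1.98e-04 at 4 weeks and 0.00115, 0.00134 and 3.67e-05 at 6 weeks.

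Intensities were corrected and quantile-normalized with neqc (offset 16) in limma 3.58.1 under R 4.3.3, negative controls being inferred from detection p-values. Probes detected (p-value under 0.01) on 3 or more arrays were fitted with lmFit and eBayes, group means over 13 arrays, two-sided, with Benjamini-Hochberg adjustment. The procedure was tested on simulated data. A probe undetected throughout the dimmer group has only a lower bound of its fold, set against the lowest detected signal per array. This bound uses group means and carries no sampling error. Symbols came from the platform annotation for 23978 probes, 1719 having none and 0 several. RefSeq gene identifiers matched 23962, accessions 9 more, and 7 kept the old symbol. The array number limits the precision.

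Members, gene lists and alternatives were chosen with earlier results of these data known. Named are all member probes, the 3 genes most correlated with Gsta1, Gsta2, Gstm3, Gstp1 and Gstt1, up to 2 called genes of largest rise and fall per functional list, Cyp2e1 and Nfe2l2. Marker lists are given mainly by counts, which is short of the rule. Hmox1 and Glul were added after their values were seen. For lists, 1 probe per gene with the highest mean was read. Replicate numbers did not pair samples: same-numbered samples' deviations in the value table correlated above 0.1 in 2 of 18 pairs (-0.32 to 0.22).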

Additional observations from a re-analysis of the deposited data

How the results depend on the processing

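Over 23 alternative settings, the 28 called transferase changes kept their direction and call in 587 of 635 values. They lost the call in 48 and changed sign in 0. Part of this was fixed in advance. The other detection filters, 1 probe per gene and only the groups compared use the same normalized values, as does leaving out an array. There a change can move only if the array left out belongs to a compared group, and otherwise only its p-value can. Of 1525 values of uncalled changes, 58 gained a call and 77, in 31 results, changed sign with no call either way. For 1 week and 4 weeks against naive liver the number of transferase probes called stayed within 1.5 times of 8 and 9. For 6 weeks against naive liver it was 2 in place of 9 with the array set in the model. For 4 weeks against 1 week (1 called) it was 2 without background correction, 3 with median scaling, 2 with cyclic loess, 2 with detection required on all arrays of a group, and 0 with no filter on dim probes, with 1 probe per gene, with only the groups compared, or with the value table and a replicate block, while with the array set it was 1, Gstm4 in place of Gstm2. For 6 weeks against 4 weeks (1 called) it was 3 without background correction, 2 with median scaling, cyclic loess, detection on all arrays of a group or only the groups compared, 3 with the value table, and 0 with no filter, 1 probe per gene, the array set or the replicate block. Leaving out each array in turn gave 8 to 10, 7 to 13 and 8 to 11 calls at 1, 4 and 6 weeks against naive liver. Over all 11212 probes the same fits gave 1905 to 3021, 2073 to 3432 and 3490 to 4827 calls. Between treated groups the transferase calls were 0 to 4 for 4 against 1 week, 0 to 4 for 6 against 1 week and 0 to 3 for 6 against 4 weeks. The causes were not tested beyond what each alternative changes. The replicate block, on numbers that do not pair the samples, also removed the 4-week call of the third Gstp1 probe, whose change in the value table was 0.31 with the block (adjusted p 0.0504) and 0.31 without it (0.0163).

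Over all probes, calls at 1 week against naive liver numbered 2861, 1513 with only the groups compared and 1363 with the array set, and at 6 weeks 4368 and 1166 with the array set. For 4 against 1 week they numbered 1241, but 707 with 1 probe per gene, 714 with only the groups compared, 124 with the array set and 421 with the replicate block. For 6 against 1 week they numbered 950, but 254 with median scaling, 530 with cyclic loess, 185 with only the groups compared, 554 with the array set and 521 with the replicate block. For 6 against 4 weeks they numbered 1154, but 426 with 1 probe per gene, 1782 with only the groups compared, 304 with the replicate block and 0 with the array set, where limma's unadjusted p was under 0.05 for 1118. Leaving out each array gave 1905 to 3021 at 1 week against naive liver (lowest without naive array B), 584 to 1584 for 4 against 1 week (lowest without 4-week array C), 359 to 1835 for 6 against 1 week (without 6-week array C and 1-week array B) and 499 to 1525 for 6 against 4 weeks (lowest without 6-week array A). Dim signals limit Gstm3, the second Gstm1 probe and naive Gsta1.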
